A study of Mus musculus with 72 samples.

Results

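RNA in whole liver nuclei was compared between 4 mice carrying C26 tumours before the onset of cachexia and 4 mice given PBS. These 8 libraries, of 72 in the study, were chosen by their labels alone, and 13738 of the 20105 genes in the count table had enough counts to be tested. All animals of both groups were BALB/c mice with the alleles CAG-Sun1/sfGFP and Albumin-Cre, together called Hep-INTACT. Cre recombinase is made under the albumin promoter, that is in hepatocytes, where it turns on a Sun1 fusion with superfolder GFP in the nuclear envelope by which these nuclei can be captured on beads. The whole liver nuclei described here are the unsorted material and hold the nuclei of all cell types. The study also had C26 animals that had lost over 10% of body weight (cachexia), BALB/c mice with NC26 tumours, which leave weight stable, and 2 cohorts of C57BL/6N mice. The design text gives zeitgeber time 9 h for animals with cachexia. The hour at which pre-cachexia and PBS livers were taken, age, sex and the number of days after tumour implantation are not given in the sources used here. The 30 hepatocyte markers checked were all measured, with a summed level of between 16333 and 19744 CPM (TMM-scaled counts per 1000000) in pre-cachexia livers and between 23812 and 33071 CPM in PBS livers.

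C26 is a mouse colon carcinoma line, and cachexia is the wasting of muscle and fat that it causes. The liver holds many cells besides hepatocytes. Its resident macrophages, the Kupffer cells, lie in the sinusoids and clear particles, antibody complexes and ageing red cells from portal blood, and sinusoidal endothelial cells line the same vessels. Monocytes, neutrophils, dendritic cells and lymphocytes pass through or settle there. Interleukin 6 and related cytokines act on hepatocytes to switch on the acute phase proteins, and interferons act on many cell types.

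Total counts were 15.6 to 25.1 M in pre-cachexia libraries and 16.1 to 25.5 M in PBS libraries. Between 4.41% and 8.31% of the counts of pre-cachexia libraries, and between 1.09% and 7.33% of those of PBS libraries, lay in 5 genes with rRNA-like reads. The 1.09% belongs to PBS animal 1, which stood apart on the first principal component of the 8 libraries (33.6, with the other PBS animals between 11.97 and 19.7). Pre-cachexia animal 3 stood apart on the second (-37.5, with the others between 2.97 and 15.2). Counts without both of these libraries are given beside several results. In bulk nuclei, fewer cells of a type and less RNA per cell cannot be told apart, and the same holds for more cells and more RNA per cell.

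Expression differed widely between both groups, more often upward. Of 13738 genes, 1198 were higher in pre-cachexia livers (8.72%) and 555 were lower (4.04%), 12.8% in all, by edgeR's quasi-likelihood test at a Benjamini-Hochberg adjusted p under 0.05. At least a 2-fold difference was seen in 498 of the higher and 108 of the lower genes. The median log2 fold change over all genes was 0.03. Values of both groups did not overlap in 2370 genes (17.3%; 10.9% higher and 6.31% lower in pre-cachexia livers), and 1366 of these were called. The number called moved with single libraries. It was 694 higher and 279 lower without pre-cachexia animal 1, and 766 higher and 166 lower without PBS animal 1. The lower count alone moved by over 1.5 times without pre-cachexia animal 2 (280), animal 3 (1024) and animal 4 (277). Without pre-cachexia animal 3 and PBS animal 1 together, 912 were higher and 372 lower. None of the shared calls had the opposite sign in any of these fits.

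Genes classed as non-hepatocyte were 48.2% of all genes called higher and 2.88% of all genes called lower. Each gene was given a class from the 12 PBS animals of the other cohorts, none of which enters the comparison. A gene was classed as non-hepatocyte where its level in bead-bound hepatocyte nuclei was at most a log2 difference of -1 from that in whole liver nuclei, at an adjusted p under 0.05. Of 2269 non-hepatocyte genes, 578 were higher in pre-cachexia livers (25.5%) and 16 were lower (0.705%), the median log2 fold change being 0.34. Of 5418 genes with more RNA in hepatocyte nuclei, 212 were higher (3.91%) and 333 lower (6.15%), with a median of -0.05. Another 5683 genes lay in neither class, of which 381 were higher and 203 lower. The non-hepatocyte count was 383 higher and 9 lower without pre-cachexia animal 1, and 7 lower without PBS animal 1. Without pre-cachexia animal 3 and PBS animal 1 together it was 490 higher and 5 lower. With the class set at a log2 difference of -2 or less, 456 were higher and 15 lower.

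**Figure D1:**
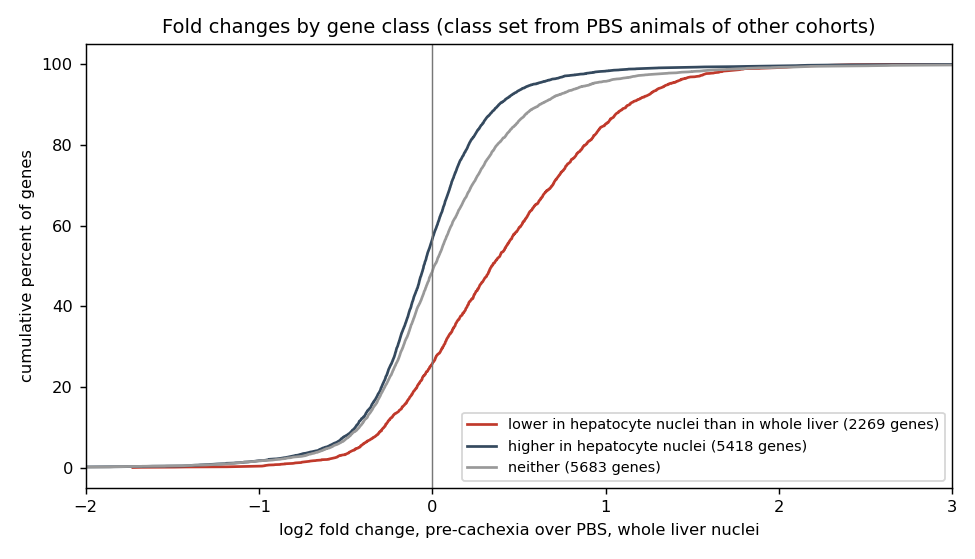
Cumulative percent of genes (vertical axis) against the log2 fold change of pre-cachexia over PBS whole liver nuclei (horizontal axis, shown from -2 to 3), for 2269 non-hepatocyte genes, 5418 genes higher in hepatocyte nuclei and 5683 genes in neither class. The curve of the non-hepatocyte genes lies to the right of the others, with a median of 0.34 against -0.05 for genes higher in hepatocyte nuclei.

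The promoters of 5 genes called higher are shown because each holds a textbook DNA element of its group, namely Fc receptor and phagocyte genes, interferon-induced genes or MHC class II genes. Promoters are the 250 bases before the start site, from RefSeq on build GRCm38.p6, all on the plus strand. The elements searched, on both strands, were the interferon-stimulated response element (TTTC, any 2 bases, TTTC), the PU.1-type ETS element of myeloid genes (GAGGAAGT) and the Y box of MHC genes, an inverted CCAAT box (CTGATTGG). Matches are in capitals, and none overlaps another. Igtp (chr11:58199306-58199555), Gbp7 (chr3:142530086-142530335), Fcgr4 (chr1:171018676-171018925), Vav1 (chr17:57278850-57279099) and H2-Eb1 (chr17:34305617-34305866) are shown.
Igtp: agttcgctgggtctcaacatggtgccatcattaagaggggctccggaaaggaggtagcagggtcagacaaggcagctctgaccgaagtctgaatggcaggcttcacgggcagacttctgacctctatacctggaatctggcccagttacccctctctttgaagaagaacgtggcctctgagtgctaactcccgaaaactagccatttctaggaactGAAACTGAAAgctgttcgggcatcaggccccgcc
Gbp7: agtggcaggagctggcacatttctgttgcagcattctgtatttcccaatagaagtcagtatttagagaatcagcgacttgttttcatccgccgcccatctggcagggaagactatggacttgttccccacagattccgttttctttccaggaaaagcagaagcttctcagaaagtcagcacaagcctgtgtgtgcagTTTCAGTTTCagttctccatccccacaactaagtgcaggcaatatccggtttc
Fcgr4: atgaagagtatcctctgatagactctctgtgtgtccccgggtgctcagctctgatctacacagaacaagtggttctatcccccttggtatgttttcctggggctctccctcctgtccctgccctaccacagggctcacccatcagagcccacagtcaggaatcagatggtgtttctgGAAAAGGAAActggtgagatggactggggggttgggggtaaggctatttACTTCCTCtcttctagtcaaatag
Vav1: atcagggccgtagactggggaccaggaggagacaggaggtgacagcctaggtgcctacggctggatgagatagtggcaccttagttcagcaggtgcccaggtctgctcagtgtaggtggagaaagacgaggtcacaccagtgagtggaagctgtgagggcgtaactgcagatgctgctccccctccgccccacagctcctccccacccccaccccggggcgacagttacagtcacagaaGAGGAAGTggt
H2-Eb1: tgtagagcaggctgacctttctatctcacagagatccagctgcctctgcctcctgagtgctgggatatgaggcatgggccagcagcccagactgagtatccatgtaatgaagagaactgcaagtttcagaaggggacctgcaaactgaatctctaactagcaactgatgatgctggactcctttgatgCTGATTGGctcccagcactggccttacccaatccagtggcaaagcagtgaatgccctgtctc
In Igtp and Gbp7 the capitals mark an interferon-stimulated response element, 24 and 43 bases before the start site. In Fcgr4 the first run of capitals is such an element (63 bases before the start) and the second a PU.1-type element on the minus strand (16 bases). In Vav1 a PU.1-type element ends 3 bases before the start, and in H2-Eb1 a Y box lies 54 bases before it. Promoters of 10517 of the 13738 tested genes were matched by symbol. The interferon element was found in 349 of them (3.32%), in 58 of 909 promoters of genes called higher (6.38%), in 16 of 421 of genes called lower (3.80%), and in 18 of 32 of the interferon-induced list (56.2%). The PU.1-type element was found in 309 (2.94%), in 53 of those called higher (5.83%), in 11 of those called lower (2.61%), and in 5 of 25 of the Fc receptor list (20%). Among myeloid cell lists it was in 4 of 14 promoters of neutrophils, 1 of 22 of Kupffer cells and macrophages, 0 of 17 of monocytes and 0 of 12 of dendritic cells. The bile duct list had it in 2 of 9. The Y box was found in 636 (6.05%), in 47 of those called higher (5.17%), in 30 of those called lower (7.13%) and in 2 of 8 of the MHC class II list. It was also in 4 of 14 promoters of the MHC class I list and in 7 of 26 of the cell cycle list (26.9%). A match is a description of letters in this window, not a site or a cause.

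Genes of Fc receptors and phagocyte signalling rose nearly as a block. This list, like all lists here, was chosen with earlier results of these data known. Its counts therefore describe its members and are not a test of the group. Of 33 tested members 31 were higher and none was lower, the median log2 fold change being 0.97, and the values of both groups did not overlap in 32. The summed level of the list was between 1128 and 1282 CPM in pre-cachexia livers and between 690.2 and 847 CPM in PBS livers. Between 23 and 32 members were called higher when any library was left out, and 27 without pre-cachexia animal 3 and PBS animal 1.

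Fgr, a Src family kinase of myeloid cells (chr4:132974095-133001882, mm10), had 9.54, 11.6, 8.99 and 10.7 CPM in pre-cachexia livers, against 2.74, 2.99, 3.51 and 2.70 CPM in PBS livers. All pre-cachexia livers lay well above all PBS livers, and the values within each group were close. The log2 fold change was 1.77 ± 0.22 (SE; adjusted p = 6.60e-06, edgeR), or 3.42-fold. Fcgr4, an activating receptor for IgG in mice (chr1:171018926-171029761), had 4.90, 4.52, 2.98 and 3.23 CPM in pre-cachexia livers and 1.04, 1.44, 1.41 and 1.41 CPM in PBS livers. Animals 1 and 2 of the pre-cachexia group were the highest, PBS animal 1 was the lowest, and the groups did not overlap. Its log2 fold change was 1.56 ± 0.23 (adjusted p = 3.72e-05, edgeR). Vav1, an exchange factor that links these receptors to the cytoskeleton (chr17:57279100-57329236), had 29.3, 25.4, 23.1 and 26.3 CPM in pre-cachexia livers and 10.04, 15.5, 10.2 and 11.3 CPM in PBS livers. Here too the groups were apart, with PBS animal 2 nearest to the pre-cachexia livers (log2 1.15 ± 0.19, adjusted p = 0.000134, edgeR).

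Other members followed. Fcgr1, the high affinity receptor for IgG, was 2.73-fold higher (adjusted p = 0.000255), Cybb, the catalytic subunit of the phagocyte NADPH oxidase, was 2.27-fold higher (adjusted p = 0.00146), and Spi1, which encodes PU.1, was 1.99-fold higher (adjusted p = 0.00113), all by edgeR. Ptprc, the common leukocyte antigen CD45, had 113, 125, 109 and 118 CPM in pre-cachexia livers and 85.7, 59.0, 59.0 and 63.0 CPM in PBS livers. PBS animal 1 was the highest of its group and still below the lowest pre-cachexia liver (log2 0.80 ± 0.20, adjusted p = 0.00866, edgeR). Outside this list, the non-hepatocyte genes with the smallest p included Rac2, a GTPase of blood cells (log2 1.43 ± 0.20), and Pik3cd, the leukocyte form of the phosphoinositide 3-kinase catalytic subunit (log2 1.41 ± 0.20). Hk2, a hexokinase that hepatocytes hardly express, had 5.96, 5.03, 6.05 and 6.21 CPM in pre-cachexia livers and 1.62, 1.97, 1.51 and 1.58 CPM in PBS livers. No value lay between the groups, and its log2 fold change was 1.79 ± 0.20 (adjusted p = 1.23e-06, edgeR).

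**Figure D2:**
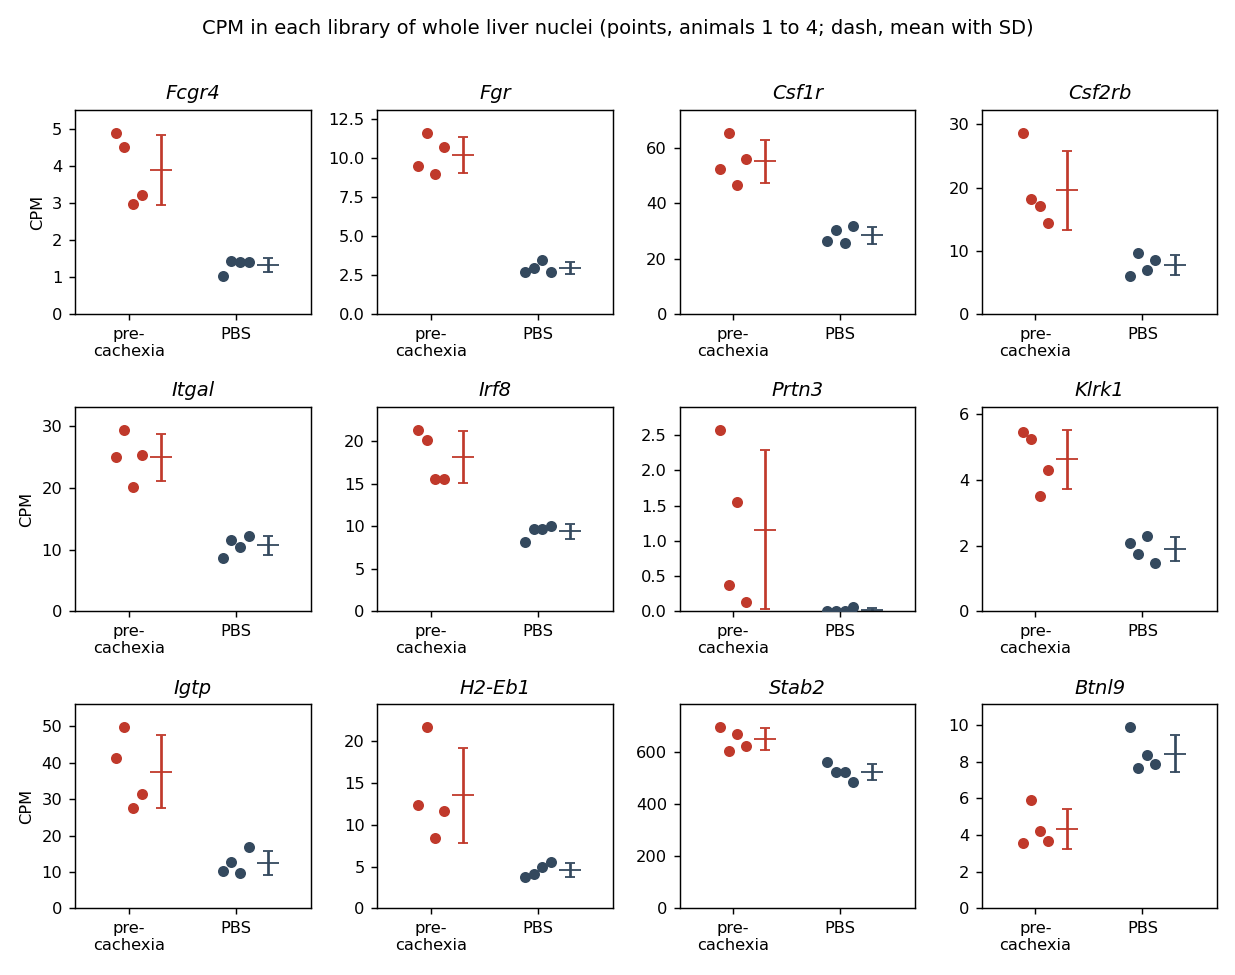
CPM (vertical axes, linear, from 0) of 12 genes in each of 4 pre-cachexia and 4 PBS libraries of whole liver nuclei. Points are animals 1 to 4 and the dash beside them is the mean with its SD. The groups do not overlap in any of the 12 panels. Stab2 is the panel whose difference missed the threshold, and Btnl9 the one that is lower in pre-cachexia livers.

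Markers of Kupffer cells and macrophages rose in part. Of 29 tested markers 16 were higher and none lower, the median log2 fold change being 0.93, and leaving out a library gave 13 to 18. Their summed level was between 1331 and 1720.1 CPM in pre-cachexia livers and between 973 and 1258 CPM in PBS livers. Some called markers of Kupffer cells, chosen for description after their values were seen, come first. Clec4f, a lectin of these cells (chr6:83644542-83656116), had 75.2, 84.7, 54.6 and 76.2 CPM in pre-cachexia livers and 33.8, 41.1, 32.0 and 44.5 CPM in PBS livers. The groups did not overlap, and pre-cachexia animal 3 was the lowest of its group (log2 0.94 ± 0.17, adjusted p = 0.000572, edgeR). Vsig4, a complement receptor, was 2.03-fold higher, Timd4, a receptor for dying cells, 1.83-fold, Adgre1, which encodes F4/80, 2.17-fold, and Siglec1, a sialic acid receptor, 2.46-fold (adjusted p 0.000768, 0.00373, 0.000501 and 0.000268, edgeR).

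The largest fold in this list was that of Cd5l, a secreted scavenger protein of macrophages (chr3:87357881-87371074). It had 69.9, 57.8, 49.9 and 54.0 CPM in pre-cachexia livers, against 11.2, 17.5, 9.94 and 15.6 CPM in PBS livers. The lowest pre-cachexia liver was far above the highest PBS liver (log2 2.10 ± 0.33, adjusted p = 9.78e-05, edgeR). Csf1r, the receptor that keeps macrophages alive (chr18:61105572-61131139), had 52.6, 65.4, 46.7 and 56.0 CPM in pre-cachexia livers and 26.4, 30.4, 25.6 and 31.9 CPM in PBS livers. Both groups were narrow and apart (log2 0.95 ± 0.16, adjusted p = 0.000227, edgeR). Ctss, a lysosomal protease, rose by a log2 fold change of 0.98 ± 0.16 (adjusted p = 0.000169).

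Of the 29 markers of the list 13 were not called. The log2 fold change was positive in 26 of the 29, and the lowest was -0.71. The most abundant markers were among those not called. Mrc1, the mannose receptor, which sinusoidal endothelium also expresses, had 256, 216, 188 and 222 CPM in pre-cachexia livers and 251, 177, 177 and 169 CPM in PBS livers. The groups overlapped, because PBS animal 1 lay near the highest pre-cachexia liver (log2 0.19 ± 0.15, adjusted p = 0.440, edgeR). Slc40a1, the iron exporter ferroportin, had 195, 274, 175 and 237 CPM in pre-cachexia livers and 145, 189, 134 and 253 CPM in PBS livers. Its groups overlapped, with PBS animals 2 and 4 above the lowest pre-cachexia liver (log2 0.29 ± 0.17, adjusted p = 0.268, edgeR). Without PBS animal 4 it was called (log2 0.50, adjusted p = 0.0482, edgeR).

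Monocyte markers rose beside those of macrophages. Of 20 tested markers 11 were higher and none lower, the median log2 fold change being 0.92, and leaving out a library gave 8 to 12. Their summed level was between 109 and 144 CPM in pre-cachexia livers and between 48.5 and 62.3 CPM in PBS livers. Plac8, a small protein of inflammatory monocytes (chr5:100553733-100572205), had 17.8, 9.05, 12.5 and 13.7 CPM in pre-cachexia livers and 4.61, 4.48, 3.65 and 5.22 CPM in PBS livers. Pre-cachexia animal 1 was the highest and animal 2 the lowest of its group, which did not overlap with PBS livers (log2 1.56 ± 0.21, adjusted p = 1.77e-05, edgeR).

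Itgal, the alpha chain of the integrin LFA-1 (chr7:127296260-127335137), had 24.9, 29.4, 20.2 and 25.3 CPM in pre-cachexia livers and 8.59, 11.6, 10.4 and 12.2 CPM in PBS livers. The pre-cachexia livers were all higher (log2 1.23 ± 0.19, adjusted p = 5.79e-05, edgeR), and its partner on vessel walls, Icam1, was 2.37-fold higher (adjusted p = 0.000143). Ccr2, the receptor by which monocytes leave the marrow, had 7.47, 6.72, 6.13 and 5.32 CPM in pre-cachexia livers and 2.86, 2.29, 2.44 and 3.17 CPM in PBS livers. The groups were apart at these low levels (log2 1.25 ± 0.28, adjusted p = 0.00353, edgeR). Ms4a4c rose by a log2 fold change of 1.63 ± 0.32 (adjusted p = 0.000949). Csf2rb, the shared receptor chain for GM-CSF, interleukin 3 and interleukin 5, had 28.6, 18.2, 17.2 and 14.4 CPM in pre-cachexia livers and 5.98, 9.65, 7.01 and 8.57 CPM in PBS livers. Pre-cachexia animal 1 was the highest, and no PBS liver reached the pre-cachexia values (log2 1.33 ± 0.24, adjusted p = 0.000333, edgeR). Its near copy Csf2rb2, the interleukin 3 receptor chain found in mice, was 5.11-fold higher (adjusted p = 8.46e-07, the smallest in the comparison), and both may share reads, so that each value is uncertain.

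Neutrophil markers were close to the limit of detection. Of 30 markers, 13 had too few counts to be tested, among them the granule genes Camp, Ngp, Ltf and Elane and the surface marker Ly6g. Of the 17 tested, 2 were higher and none lower, and the median log2 fold change was 1.22. The summed level of the tested markers overlapped between groups (between 57.3 and 96.2 CPM in pre-cachexia livers, between 38.7 and 79.9 CPM in PBS livers). Csf3r, the receptor for G-CSF, had 9.49, 9.39, 10.1 and 7.03 CPM in pre-cachexia livers and 4.36, 4.48, 5.46 and 4.23 CPM in PBS livers. Values of both groups lay apart (log2 0.96 ± 0.20, adjusted p = 0.00214, edgeR). Prtn3, a granule protease made in neutrophil precursors, had 51, 9, 38 and 2 counts in pre-cachexia livers, against 0, 0, 0 and 1 counts in PBS livers. Animals 1 and 3 held most of its counts, and animal 4 lay next to PBS animal 4. The ratio of both groups was 96.1 (95% interval 16.8 to 3831, counting error only), and the call (adjusted p = 0.00120, edgeR) stood without pre-cachexia animal 1 (log2 5.27, adjusted p = 0.00855) and without PBS animal 4 (log2 7.61, adjusted p = 0.00392). The calprotectin gene S100a8 had 8 counts in all pre-cachexia livers together and 3 in all PBS livers (ratio 2.56, 95% interval 0.615 to 15.0). Wfdc21, another marker of the list, was not called (between 42.4 and 77.8 CPM in pre-cachexia livers, between 31.9 and 71.4 CPM in PBS livers, adjusted p = 0.353, edgeR). It made up most of the summed level of the list, so the overlap of that sum is largely the overlap of this gene. Wfdc21 was not in the non-hepatocyte class, and hepatocyte nuclei averaged 65.3 CPM in pre-cachexia animals and 40.3 CPM in PBS animals.

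Of 16 dendritic cell markers tested, 7 were higher and none lower, the median log2 fold change being 0.92. Without pre-cachexia animal 2 the count was 4. Irf8, a transcription factor that dendritic cells and monocytes need (chr8:120736358-120756692), had 21.4, 20.2, 15.6 and 15.6 CPM in pre-cachexia livers and 8.18, 9.65, 9.69 and 10.1 CPM in PBS livers. Animals 1 and 2 of the pre-cachexia group were the highest, and the groups were apart (log2 0.95 ± 0.15, adjusted p = 0.000133, edgeR). Batf3, a factor of cross-presenting dendritic cells, was 2.88-fold higher (adjusted p = 0.00159), and Itgax, which encodes CD11c, 2.75-fold higher (adjusted p = 0.000944). Clec9a, a receptor of the same cells for dead cell debris, had 54.3, 33.3, 26.3 and 30.9 CPM in pre-cachexia livers and 25.6, 16.2, 14.8 and 17.3 CPM in PBS livers. Its groups were apart only narrowly, with PBS animal 1 just under pre-cachexia animal 3 (log2 0.97 ± 0.22, adjusted p = 0.00373, edgeR). Zbtb46, which endothelial cells also express, had a log2 fold change of -0.07 ± 0.10 (adjusted p = 0.693).

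Markers of T and NK cells were higher in part, at low levels. Of 32 tested markers 11 were higher and none lower, the median log2 fold change being 0.74, and 10 of the list's 42 markers had too few counts. The fit of only the 8 libraries called 6 higher. The count was 5 without pre-cachexia animal 2, 6 without pre-cachexia animal 4, 6 without PBS animal 1 and 7 without PBS animal 3. Klrk1, the activating receptor NKG2D, had 5.45, 5.24, 3.51 and 4.31 CPM in pre-cachexia livers and 2.08, 1.76, 2.29 and 1.47 CPM in PBS livers. Pre-cachexia animal 3 was nearest to the PBS livers and still above them (log2 1.28 ± 0.28, adjusted p = 0.00277, edgeR). Bcl11b, a factor of T cell identity, was 2.66-fold higher (adjusted p = 0.00499). Il2rb, a chain of the interleukin 2 and 15 receptors, was 2.64-fold higher (adjusted p = 0.00918), a call that was lost without pre-cachexia animal 2 (adjusted p = 0.0512) and without PBS animal 1 (adjusted p = 0.0566). Their summed level overlapped between groups (between 634 and 919 CPM in pre-cachexia livers, between 481 and 758 CPM in PBS livers). It includes Tox, a T cell factor that was not called and whose RNA was higher in hepatocyte than in whole liver nuclei of the other cohorts. The receptor chain Il18rap, by which T and NK cells sense interleukin 18, was 3.48-fold higher (adjusted p = 2.72e-05).

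Of 24 markers of B and plasma cells, 4 were higher and none lower (median log2 fold change 0.62). Their summed level overlapped too (between 344 and 548 CPM in pre-cachexia livers, between 347 and 472 CPM in PBS livers). The count was 8 without pre-cachexia animal 3, and 2 without pre-cachexia animal 4, PBS animal 1 or PBS animal 3. Prdm1, which drives plasma cell fate and is also used by other lymphocytes and Kupffer cells, had 5.15, 3.55, 2.70 and 4.50 CPM in pre-cachexia livers and 1.08, 1.49, 0.877 and 1.88 CPM in PBS livers. The groups did not overlap (log2 1.58 ± 0.30, adjusted p = 0.000674, edgeR). Ikzf3, a lymphoid factor, was 2.08-fold higher (adjusted p = 0.00682), and among the 12 C26 libraries alone its adjusted p was 0.0520. None of the 4 tested markers of basophils, mast cells and eosinophils and none of the 4 of megakaryocytes was called by edgeR or DESeq2 (1 and 1 had an unadjusted p under 0.05 by edgeR), and 1 of the first list was called without pre-cachexia animal 2.

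**Figure D3:**
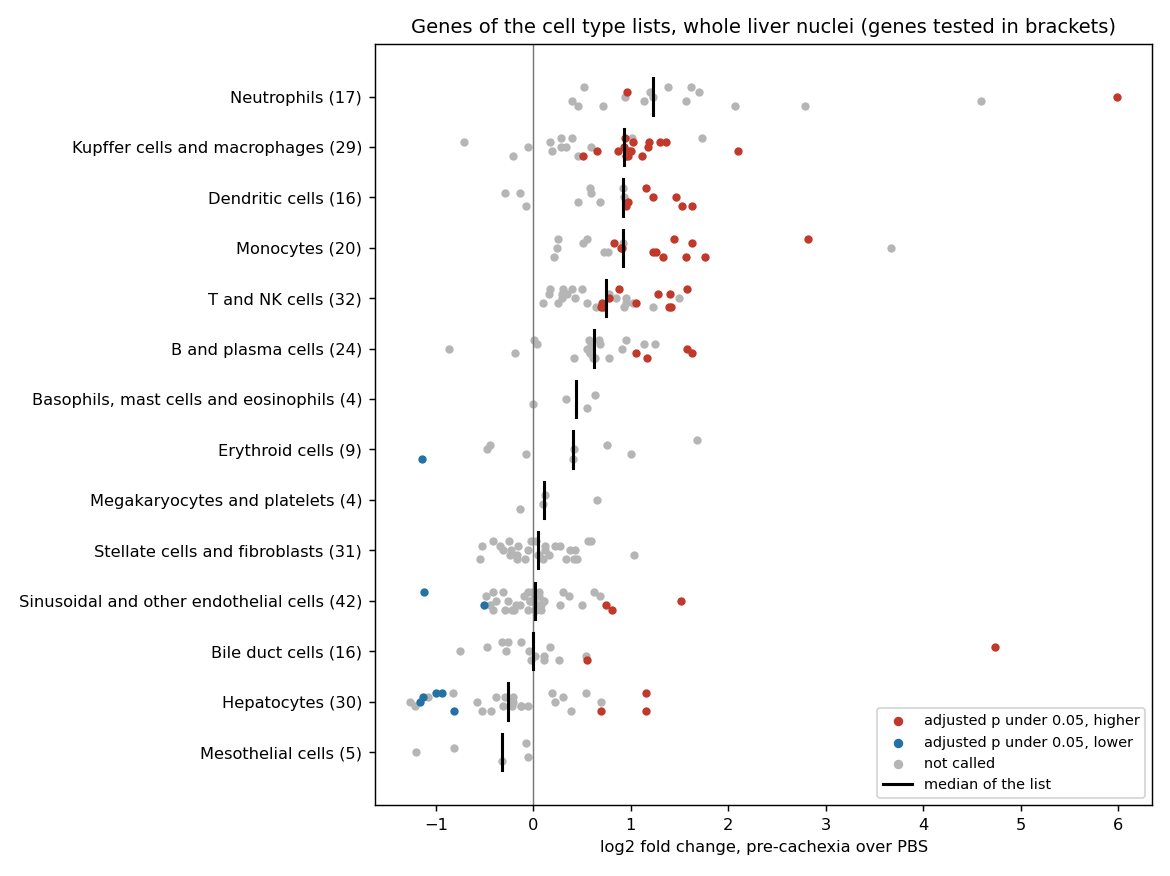
Log2 fold change of pre-cachexia over PBS whole liver nuclei (horizontal axis) for the tested genes of each cell type list, whose number stands in brackets. Points are genes, red where called higher, blue where called lower and grey where not called, and the black bar is the median of the list. The lists of neutrophils, macrophages, dendritic cells, monocytes and lymphocytes have medians between 0.62 and 1.22, and those of endothelial cells and stellate cells lie at 0.01 and 0.04.

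MHC class II genes rose in pre-cachexia livers. Of 13 tested genes 8 were higher and none lower, the median log2 fold change being 1.12, and leaving out a library gave 8 to 11. Their summed level was between 129.7 and 219.9 CPM in pre-cachexia livers and between 75.1 and 84.0 CPM in PBS livers. H2-Eb1, a beta chain of the class II molecule (chr17:34305867-34316674), had 12.3, 21.7, 8.42 and 11.6 CPM in pre-cachexia livers and 3.78, 4.11, 4.97 and 5.52 CPM in PBS livers. Pre-cachexia animal 2 was the highest, animal 3 the lowest of its group, and the groups did not overlap (log2 1.56 ± 0.27, adjusted p = 0.000217, edgeR). H2-Aa and H2-Ab1, the chains of the other class II molecule, were 2.71-fold and 2.52-fold higher (adjusted p 0.00214 and 0.00447), again with animal 2 highest and animal 3 lowest. Cd74, the invariant chain, was 2.18-fold higher (adjusted p = 0.00511). Ciita, the coactivator that these genes need, had 20.6, 28.2, 15.5 and 18.05 CPM in pre-cachexia livers and 8.34, 5.87, 8.72 and 5.16 CPM in PBS livers. The groups were apart (log2 1.55 ± 0.27, adjusted p = 0.000309, edgeR). Members of the H2 family resemble one another, and how shared reads were assigned is not stated.

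MHC class I genes, which hepatocytes also express, rose too. Of 17 tested genes 12 were higher and none lower (median log2 fold change 0.74, and 8 to 13 called higher when any library was left out). Their summed level overlapped between groups (between 681 and 994 CPM in pre-cachexia livers, between 598 and 697 CPM in PBS livers). Nlrc5, the coactivator of class I genes (chr8:94472763-94527272), had 192, 160.1, 110.3 and 126 CPM in pre-cachexia livers and 47.2, 61.7, 43.3 and 61.7 CPM in PBS livers. The groups were far apart (log2 1.46 ± 0.17, adjusted p = 1.23e-06, edgeR). The peptide transporter gene Tap1 was 2.17-fold higher (adjusted p = 0.000134), the immunoproteasome subunit gene Psmb8 2.39-fold (adjusted p = 0.00103) and the class I gene H2-Q4 2.31-fold (adjusted p = 4.48e-05).

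Genes induced by interferon were higher across most of their list. Of 46 genes 29 were higher and none lower, the median log2 fold change being 0.87, and 18 were called without pre-cachexia animal 1. The summed level was between 1413 and 1755 CPM in pre-cachexia livers and between 817 and 1018 CPM in PBS livers. Zbp1, a sensor of Z-form nucleic acids, had 27.2, 10.3, 13.7 and 11.8 CPM in pre-cachexia livers and 1.25, 2.88, 1.66 and 2.64 CPM in PBS livers. Pre-cachexia animal 1 was the highest, and the lowest of its group was still well above the PBS livers (log2 2.92 ± 0.43, adjusted p = 4.48e-05, edgeR).

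Of the genes whose promoters are shown above, Igtp and Gbp7 are interferon-induced. Igtp, a GTPase induced by interferon gamma (chr11:58199556-58207592), had 41.3, 49.8, 27.7 and 31.3 CPM in pre-cachexia livers and 10.2, 12.7, 9.69 and 17.0 CPM in PBS livers. PBS animal 4 was the highest of its group and below the lowest pre-cachexia liver (log2 1.60 ± 0.30, adjusted p = 0.000574, edgeR). Gbp7, of the guanylate-binding proteins, had 23.8, 18.6, 16.3 and 25.2 CPM in pre-cachexia livers and 9.63, 10.7, 7.94 and 10.3 CPM in PBS livers, with no overlap (log2 1.12 ± 0.24, adjusted p = 0.00242, edgeR). The Gbp genes are similar to one another, so that its value is uncertain. Usp18, which removes the ubiquitin-like ISG15, was 3.59-fold higher, Oas3, an RNA sensor, 3.44-fold, and Mx1, an antiviral GTPase, 3.21-fold (adjusted p 0.000507, 0.00302 and 0.00219, edgeR).

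Sensors of microbes and of damage rose in part. Of 32 tested genes of pattern recognition and the inflammasome 17 were higher and none lower (median log2 fold change 0.71), and 10 were called without pre-cachexia animal 1 or without PBS animal 3. Aim2, a sensor of DNA in the cytosol, had 22.4, 22.6, 14.4 and 19.9 CPM in pre-cachexia livers and 9.75, 9.28, 8.18 and 9.68 CPM in PBS livers. The PBS livers were close together and all below the pre-cachexia livers (log2 1.10 ± 0.19, adjusted p = 0.000214, edgeR). Nlrp3, the inflammasome sensor, was 2.28-fold higher (adjusted p = 0.00390) and Irak4, a kinase below Toll-like receptors, 1.55-fold (adjusted p = 0.000917). Of 28 chemokine receptors and adhesion genes 13 were higher and none lower (median 0.94; 9 to 15 without any library).

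Some chemokines and cytokines were called, a larger share than the 12.8% called over all genes, but the count fell when single libraries were left out. Of 28 tested genes 6 were higher and 1, the T cell chemokine Ccl25, was lower (median log2 fold change 0.55), and 2 were higher without pre-cachexia animal 1 and 3 without pre-cachexia animal 2, pre-cachexia animal 4 or PBS animal 2, or with only the 8 libraries of both groups. Ccl25 was not called without pre-cachexia animal 1, 2 or 4 or PBS animal 1, 2 or 3. Cxcl1, which draws neutrophils and is made by hepatocytes among others (chr5:90891245-90893115), had 124, 26.6, 112 and 29.8 CPM in pre-cachexia livers and 8.30, 8.91, 7.31 and 9.68 CPM in PBS livers. Pre-cachexia animals 1 and 3 were several times higher than animals 2 and 4, and all were above the PBS livers (log2 3.10 ± 0.44, adjusted p = 3.29e-05, edgeR). Of 22 NF-kB regulators and targets 9 were higher and none lower, but 4 without pre-cachexia animal 1 and 5 without pre-cachexia animal 2 or PBS animal 3. Among them was Relt, a receptor of the TNF receptor family, with 2.57, 2.20, 1.59 and 1.96 CPM in pre-cachexia livers and 0.208, 0.640, 0.438 and 0.411 CPM in PBS livers (log2 2.30 ± 0.35, adjusted p = 5.33e-05). All pre-cachexia livers were above all PBS livers for this gene, though at low counts.

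Complement and acute phase genes, many of which hepatocytes make, were higher in part. Of 27 complement genes 13 were higher and none lower (median log2 fold change 0.55; 9 to 11 without any library). C4b had 436, 427, 562 and 387 CPM in pre-cachexia livers and 119, 206, 194 and 224 CPM in PBS livers, with no overlap (log2 1.29 ± 0.25, adjusted p = 0.00105, edgeR). Of 30 acute phase genes 20 were higher and none lower, with a median of 1.50, and leaving out a library gave 15 to 20. Summed over the acute phase list, levels overlapped (between 5919 and 14627 CPM in pre-cachexia livers, between 3353 and 6465 CPM in PBS livers). Of 23 genes of interleukin 6, JAK and STAT3 signalling 8 were higher and none lower (median 0.67). Single genes were called lower in these lists when 1 library was left out, namely 1 acute phase gene without pre-cachexia animal 4 and 1 signalling gene without PBS animal 2, 3 or 4.

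These genes also showed how the pre-cachexia livers differed among themselves. Saa1, of the serum amyloid A proteins (chr7:46740499-46742980), had 360.0, 46.1, 307 and 72.6 CPM in pre-cachexia livers and 4.86, 2.40, 1.95 and 9.68 CPM in PBS livers. Animals 1 and 3 of the pre-cachexia group were several times above animals 2 and 4, which were still above all PBS livers (log2 5.39 ± 0.66, adjusted p = 4.24e-06, edgeR). Animals 1 and 3 were also the highest of their group for Orm2, an orosomucoid, and Fgl1, a secreted protein of the fibrinogen family (log2 4.70 ± 0.51 and 4.80 ± 0.69, adjusted p 8.46e-07 and 3.20e-05). Mt2, a metallothionein, had 109, 14.2, 32.5 and 14.6 CPM in pre-cachexia livers and 0.623, 0.693, 0.438 and 1.35 CPM in PBS livers, with animal 1 the highest (log2 5.80 ± 0.66, adjusted p = 1.23e-06, edgeR). Mt2 counted in the non-hepatocyte class, though hepatocyte nuclei averaged 66.5 CPM in pre-cachexia animals and 3.61 CPM in PBS animals. Without pre-cachexia animal 1 the log2 fold changes of Mt2 and Orm2 were 4.73 and 3.78, and without PBS animal 4 that of Saa1 was 5.98. Socs3, the feedback inhibitor of these signals, had 21.8, 29.0, 16.1 and 7.60 CPM in pre-cachexia livers and 1.25, 2.13, 1.56 and 6.34 CPM in PBS livers. Its groups nearly touched, in animal 4 of each (log2 2.76 ± 0.39, adjusted p = 2.86e-05, edgeR; log2 3.51 without PBS animal 4). The Saa, Orm and metallothionein genes have near copies that may share reads, so their values are uncertain.

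**Figure D4:**
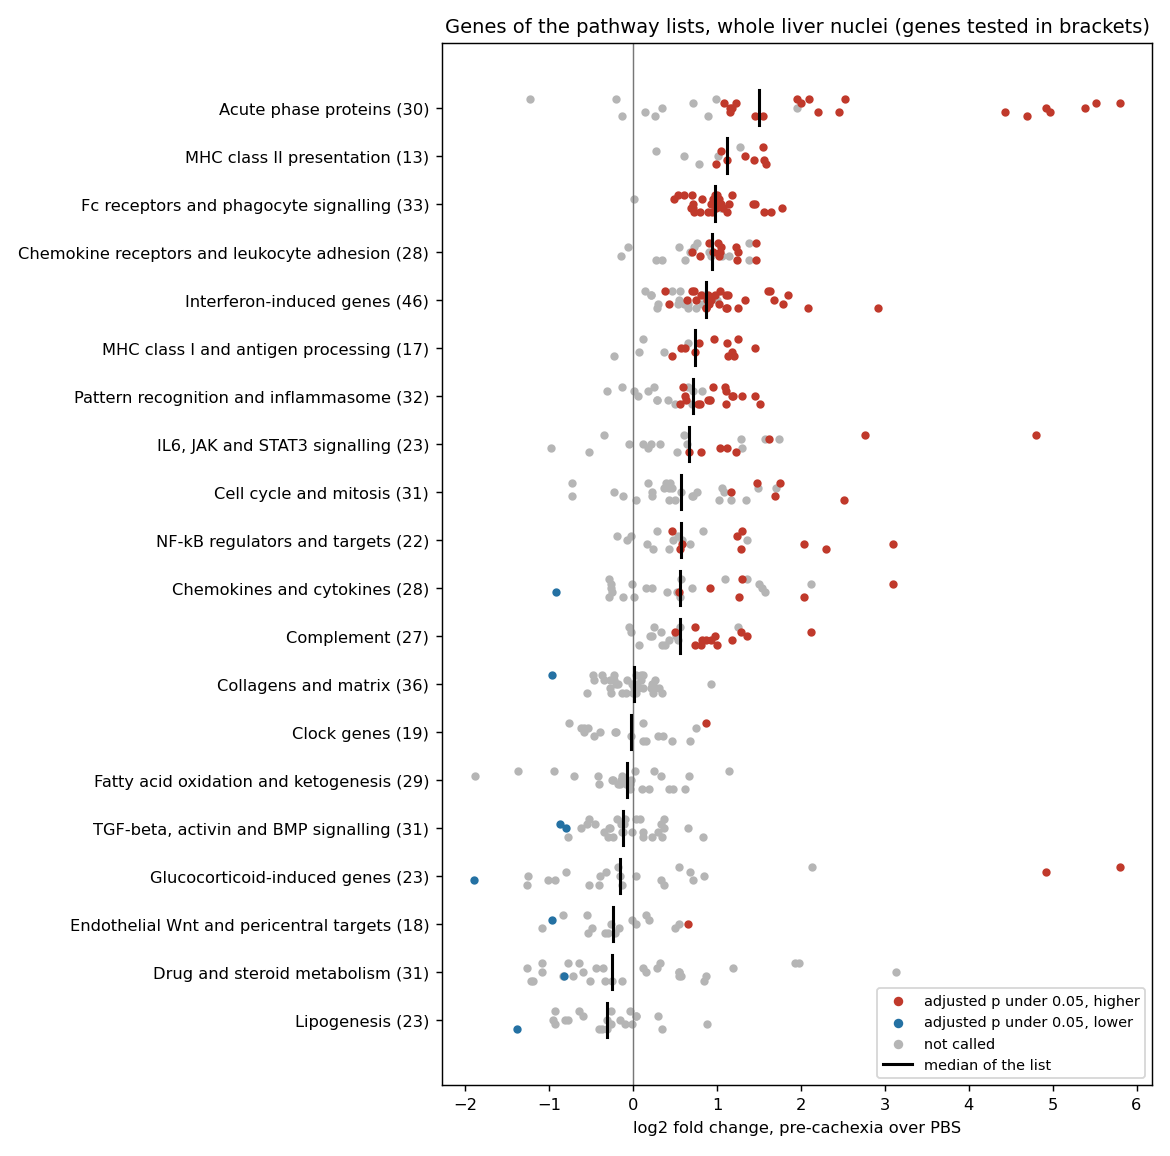
Log2 fold change of pre-cachexia over PBS whole liver nuclei (horizontal axis) for the tested genes of each pathway list, with their number in brackets. Points are genes, coloured by whether they were called higher, lower or not, and the black bar is the median. Among Fc receptor and phagocyte genes 31 of 33 are called higher. In this fit of 36 libraries clock, matrix, lipogenesis, fatty acid oxidation and drug metabolism genes each have at most 1 called gene, while DESeq2 called 8 genes of drug metabolism.

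Markers of vessels and bile ducts were called about as often as all genes, of which 12.8% were called (8.72% higher and 4.04% lower). No stellate cell marker was called in the fit of 36 libraries. Of 42 endothelial markers 3 were higher and 2 lower, the median log2 fold change being 0.01. Their summed level was between 3349 and 4449 CPM in pre-cachexia livers and between 2951 and 3290.1 CPM in PBS livers. Nrp1 averaged 1081 ± 398 CPM in pre-cachexia livers and 377 ± 10.9 CPM in PBS livers (SD, n = 4 each), and without it the sums overlapped (2656 to 2898 CPM in pre-cachexia livers, 2582 to 2912 CPM in PBS livers), a step added after its values were seen. The lower count was 0 without pre-cachexia animal 1 or PBS animal 1 and 1 without pre-cachexia animal 4, and without pre-cachexia animal 3 and PBS animal 1 together 2 were higher and 0 lower. Stab2, the hyaluronan scavenger receptor of sinusoidal endothelium (chr10:86841210-87007942), had 695, 604, 669.6 and 622 CPM in pre-cachexia livers and 562, 521, 522 and 486 CPM in PBS livers. No overlap was seen between groups, but the difference missed the threshold (log2 0.31 ± 0.11, adjusted p = 0.0584, edgeR), and DESeq2 called it (adjusted p = 0.0352). Kdr and Pecam1, general endothelial markers, had log2 fold changes of 0.02 ± 0.15 and -0.06 ± 0.11 (adjusted p 0.948 and 0.757).

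The endothelial genes that passed differed in direction. Ptgs1, a cyclooxygenase, and Plxnc1, a semaphorin receptor that leukocytes also express, were 1.67-fold and 1.74-fold higher (adjusted p 0.000624 and 0.00282, edgeR). Nrp1, a co-receptor for VEGF, was 2.86-fold higher (adjusted p = 0.0112), a call that did not stand without pre-cachexia animal 3 and PBS animal 1 (adjusted p = 0.0765). Nrp1 was not in the non-hepatocyte class. In hepatocyte nuclei it averaged 1091 ± 417 CPM in pre-cachexia animals and 270 ± 88.4 CPM in PBS animals (SD). Its log2 fold change there was 2.01 ± 0.59 (adjusted p = 0.0323, edgeR). Lyve1, a hyaluronan receptor of sinusoidal and lymphatic endothelium, had 1.97, 2.88, 3.15 and 2.03 CPM in pre-cachexia livers and 10.2, 3.57, 4.53 and 3.46 CPM in PBS livers. PBS animal 1 was far above the rest, and the call (log2 -1.12 ± 0.36, adjusted p = 0.0345, edgeR) was lost without it (log2 -0.61, adjusted p = 0.324) and without pre-cachexia animal 1, 2 or 4 (adjusted p 0.0979, 0.0576 and 0.0933). Among all non-hepatocyte genes called lower, Btnl9, a butyrophilin-like gene of vessels (chr11:49168325-49187089), had the smallest p. It had 3.58, 5.92, 4.21 and 3.67 CPM in pre-cachexia livers, against 9.88, 7.63, 8.38 and 7.86 CPM in PBS livers. The groups did not overlap, and PBS animal 1 was the highest (log2 -0.95 ± 0.19, adjusted p = 0.00116, edgeR).

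None of 31 stellate cell and fibroblast markers was called in either direction by edgeR (4 had an unadjusted p under 0.05, and DESeq2 and the fit of only the 8 libraries each called 1 higher; median log2 fold change 0.04), and their summed level overlapped (between 2080.2 and 2567 CPM in pre-cachexia livers, between 2469 and 2782 CPM in PBS livers). Lrat, which stores vitamin A in these cells, and Col1a1, a fibrillar collagen chain, had log2 fold changes of -0.16 ± 0.35 and 0.03 ± 0.49 (adjusted p 0.805 and 0.979). Of 36 collagen and matrix genes only Timp3, an inhibitor of matrix proteases, was called, and it was lower. It had 25.7, 27.8, 20.2 and 27.5 CPM in pre-cachexia livers, against 59.1, 42.6, 43.0 and 53.0 CPM in PBS livers. Values of both groups lay apart (log2 -0.97 ± 0.23, adjusted p = 0.00485, edgeR), but its span overlaps that of Syn3, whose reads cannot be told apart without knowing how strand was used, and without pre-cachexia animal 3 and PBS animal 1 its adjusted p was 0.0559.

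Of 16 bile duct markers 2, Sctr and Bicc1, were higher and none lower, and 1 was called when any library other than pre-cachexia animal 2 was left out, 1 without both pre-cachexia animal 3 and PBS animal 1, and 0 with only the 8 libraries. Sctr, the secretin receptor, had 3, 3, 4 and 3 counts in pre-cachexia livers, against 0 in all 4 PBS livers. Taken against a floor of 3 counts over the group, it was at least 4.16-fold higher, and the exact 95% interval of the ratio, which covers counting error only, had a lower limit of 2.93. The erythroid marker Alas2, the first enzyme of haem synthesis in red cell precursors, had 20.9, 35.3, 24.2 and 28.9 CPM in pre-cachexia livers and 55.4, 74.0, 61.8 and 50.5 CPM in PBS livers. The groups were apart (log2 -1.14 ± 0.25, adjusted p = 0.00278, edgeR), but Alas2 RNA was higher in hepatocyte than in whole liver nuclei of the other cohorts, and the other 8 erythroid markers were not called. Without pre-cachexia animal 2 or 3 another erythroid marker was higher, and without pre-cachexia animal 3 or PBS animal 4 the lower count was 2.

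Genes with more RNA in hepatocyte nuclei made up 60.0% of all genes called lower, but they were also 5418 of the 13738 genes tested. Of this class 6.15% were called lower, against 4.04% of all genes. The class needed only a positive log2 difference at an adjusted p under 0.05, a looser limit than that of the non-hepatocyte class. Of 30 hepatocyte markers 5 were lower and 3 higher, the median log2 fold change being -0.26. The lower count was 3 without pre-cachexia animal 1, 3 or 4 and 1 without PBS animal 1. The higher count was 1 without pre-cachexia animal 1 or 3 or PBS animal 1, 2 or 3, and without pre-cachexia animal 3 and PBS animal 1 together 1 was lower and 0 higher. The summed level of the list, given above, was lower in every pre-cachexia liver than in every PBS liver. This sum includes genes of very high level such as Cps1, whose values follow. Over all 5418 genes with more RNA in hepatocyte nuclei the median log2 fold change was -0.05, with 212 higher and 333 lower. Whether hepatocyte RNA as a whole had a lower share was not tested. Nor was any part of this in the higher levels of other genes. Ttr, the thyroxine carrier transthyretin, had 231, 387, 246 and 309 CPM in pre-cachexia livers and 557, 574, 693 and 527 CPM in PBS livers. No overlap was seen between groups (log2 -1.002 ± 0.25, adjusted p = 0.00791, edgeR). Cps1, the first enzyme of the urea cycle, had 4928, 2413, 2835 and 2582 CPM in pre-cachexia livers and 8072, 8154, 6939 and 5383 CPM in PBS livers. Pre-cachexia animal 1 was near the lowest PBS liver, and the call (log2 -1.16 ± 0.33, adjusted p = 0.0188) was lost without pre-cachexia animal 2 (0.0676), animal 4 (0.0616) or PBS animal 1 (0.0576), and without both pre-cachexia animal 3 and PBS animal 1 (0.0854).

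The strongest falls included secreted and metabolic genes, some of which follow. They also included genes of other kinds, which are not reported here. Mup21, of the major urinary proteins (chr4:62147832-62150841), had 8.78, 14.04, 13.3 and 13.7 CPM in pre-cachexia livers, against 224, 169, 147 and 103 CPM in PBS livers. All PBS livers were many times higher (log2 -3.69 ± 0.48, adjusted p = 1.10e-05, edgeR), though the Mup genes are near copies and its value is uncertain. Pdgfrl, which encodes a protein like the ligand-binding part of the PDGF receptor, was 14.03-fold lower (adjusted p = 0.00143), Csad, an enzyme of taurine synthesis, 7.09-fold (adjusted p = 0.000260), and Etnppl, which breaks down phosphoethanolamine, 4.58-fold (adjusted p = 0.00252). Metabolic lists held few calls in the fit of 36 libraries. Of 23 lipogenesis genes 1 was lower (2 without pre-cachexia animal 3 or PBS animal 2, and 0 without both pre-cachexia animal 3 and PBS animal 1). DESeq2 called 3 lipogenesis genes lower, and edgeR on only the 8 libraries of both groups called 5 lower and 1 higher. Of 31 genes of drug metabolism 1 was lower (0 without pre-cachexia animal 1 or PBS animal 1, 0 without both pre-cachexia animal 3 and PBS animal 1, 3 without pre-cachexia animal 2), and 1 was higher without pre-cachexia animal 3. DESeq2 called 6 of these lower and 2 higher, and the fit of only the 8 libraries called 4 lower and 2 higher. None of 29 genes of fatty acid oxidation was called by edgeR or DESeq2 (2 had an unadjusted p under 0.05 by edgeR), 1 was higher without pre-cachexia animal 3 or PBS animal 4, and 1 was higher and 1 lower with only the 8 libraries. Of 19 clock genes 1 was higher, but none without pre-cachexia animal 1, 2 or 4 or PBS animal 1, 2 or 3. Without pre-cachexia animal 3 the clock genes called were 2 higher and 2 lower, and without both that animal and PBS animal 1 they were 0 higher and 2 lower. Of 31 cell cycle genes 5 were higher, among them Top2a, the topoisomerase of dividing cells (4.49, 6.77, 3.27 and 5.51 CPM in pre-cachexia livers, 1.08, 1.97, 1.07 and 1.88 CPM in PBS livers, adjusted p = 0.00143, edgeR). Its groups did not overlap. The count of cell cycle genes was 1 without PBS animal 1 or PBS animal 3, 2 without pre-cachexia animal 1 or 2, 3 without pre-cachexia animal 4 or PBS animal 4, and 8 without pre-cachexia animal 3. It was 2 without both pre-cachexia animal 3 and PBS animal 1, and 8 by DESeq2.

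The same 8 animals gave a second library each from bead-bound hepatocyte nuclei, so that the effect in whole liver nuclei could be set beside that in hepatocyte nuclei. In hepatocyte nuclei 635 of 13274 genes were higher (4.78%) and 390 lower (2.94%), 7.72% in all. Some genes of leukocytes were also measured there. Csf1r averaged 10.6 ± 0.668 CPM in hepatocyte nuclei of pre-cachexia animals and 5.66 ± 2.44 CPM in those of PBS animals (SD, n = 4 each), with a log2 fold change of 0.91 ± 0.27 (adjusted p = 0.0332, edgeR). H2-Eb1 averaged 3.09 ± 0.694 CPM in hepatocyte nuclei of pre-cachexia animals and 0.707 ± 0.374 CPM in those of PBS animals (log2 2.14 ± 0.35, adjusted p = 0.000418, edgeR). The Fc receptor list had 13 of 32 members higher with a median of 1.001, the Kupffer cell and macrophage list 12 of 29 with a median of 0.92, and the interferon-induced list 21 of 45 with a median of 1.05, none with a lower member.

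The difference between both effects was tested with the animal as a block over all 72 libraries. Of 14054 genes, 7 had a more positive effect in whole liver nuclei (0.0498%) and 22 a more negative one (0.157%), 0.206% in all. None of the lists of leukocyte, endothelial or stellate cell markers held such a gene. With only the 16 libraries of these animals, or with no animal block, none was called, at an unadjusted count of 885 genes with p under 0.05 in the fit with the block. Orm3, an orosomucoid, rose more in whole liver nuclei (log2 difference 1.99 ± 0.35, adjusted p = 0.00656, edgeR), with log2 fold changes of 4.97 ± 0.69 in whole liver and 3.06 ± 0.63 in hepatocyte nuclei. The vesicle GTPase gene Rab3b, which is classed as non-hepatocyte, had log2 fold changes of 2.22 ± 0.37 in whole liver and 0.14 ± 0.44 in hepatocyte nuclei (difference 1.86 ± 0.40, adjusted p = 0.0408). Xaf1, an interferon-induced gene, and Alpk1, a kinase that senses bacterial sugars, rose less in whole liver nuclei (differences -0.82 ± 0.13 and -0.77 ± 0.15, adjusted p 0.00529 and 0.0106). The rise of Xaf1 in whole liver nuclei (adjusted p = 0.0114) was not called without pre-cachexia animal 1 (adjusted p = 0.0654, edgeR).

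Pre-cachexia livers were also set beside livers of C26 animals with cachexia, a comparison that was chosen after the data were seen and shares its pre-cachexia libraries with the one against PBS. Of 13738 genes 954 were higher in pre-cachexia livers (6.94%) and 643 lower (4.68%), 11.6% in all. Interferon-induced genes were higher before cachexia in 39 of 46 cases and lower in none, and MHC class II genes in 10 of 13 and in none. H2-Eb1 averaged 13.5 ± 5.70 CPM in pre-cachexia livers and 3.76 ± 1.28 CPM in cachexia livers (SD, n = 4 each; log2 1.84 ± 0.27, adjusted p = 2.94e-05, edgeR). Ciita and Igtp differed in the same direction (log2 1.89 ± 0.28 and 1.83 ± 0.30, adjusted p 2.79e-05 and 0.000123), as did Top2a (log2 3.65 ± 0.42, adjusted p = 1.62e-06). Acute phase genes went the other way, with 19 of 30 lower in pre-cachexia livers and none higher. Csf2rb2 averaged 10.5 ± 3.76 CPM in pre-cachexia livers and 31.2 ± 3.66 CPM in cachexia livers (log2 -1.57 ± 0.23, adjusted p = 2.38e-05). Of the Fc receptor list 13 of 33 were higher in pre-cachexia livers and none lower.

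Against PBS, cachexia livers had 22.1% of genes called (11.8% higher, 10.3% lower), and this comparison shares its PBS animals with that of pre-cachexia livers. Its list medians were -0.36 for interferon-induced genes (4 higher and 11 lower of 46), -0.35 for MHC class II genes (1 higher and 1 lower of 13), 0.32 for Kupffer cell and macrophage markers (10 higher and none lower of 29) and 1.85 for neutrophil markers (9 higher and none lower of 17). The pre-cachexia medians of the same lists were 0.87, 1.12, 0.93 and 1.22.

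NC26 tumours, which grow in the same strain without weight loss, were compared with PBS animals of their own cohort. Of 13738 genes 97 were higher (0.706%) and 3 lower (0.0218%), 0.728% in all. Among them were Fcgr4 (log2 1.19 ± 0.23, adjusted p = 0.00894), Fgr (0.92 ± 0.22, adjusted p = 0.0309), Cd5l (1.43 ± 0.33, adjusted p = 0.0260) and Csf1r (0.65 ± 0.16, adjusted p = 0.0470), and the list medians were 0.54 for Fc receptors and phagocyte signalling, 0.60 for Kupffer cells and macrophages and 0.43 for interferon-induced genes. H2-Eb1 was not called there (log2 0.55 ± 0.27, adjusted p = 0.402, edgeR). The difference between the pre-cachexia effect and the NC26 effect passed the threshold in 0 genes with edgeR, where 568 genes had an unadjusted p under 0.05 and the smallest adjusted p was 0.567, and in 0 genes with DESeq2 (604 unadjusted). A gene called in one of these comparisons and not in the other is therefore not shown to differ between them.

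**Figure D5:**
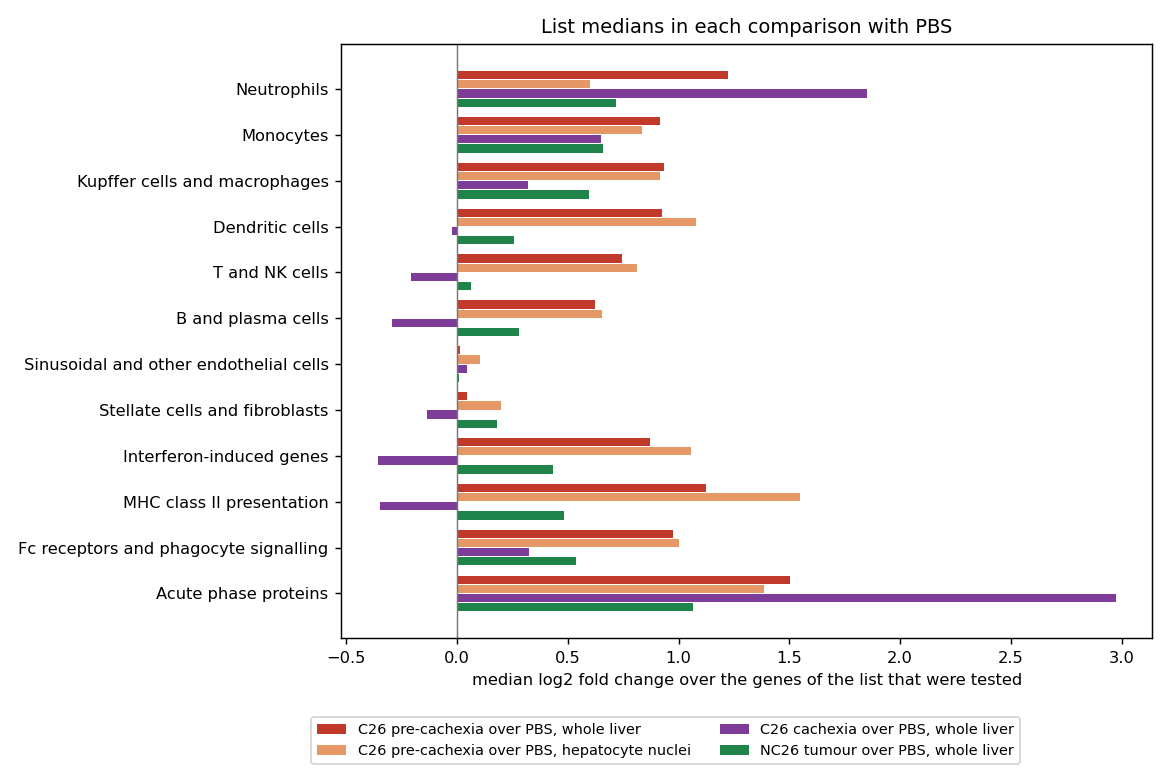
Median log2 fold change (horizontal axis) over the tested genes of 12 lists, for pre-cachexia over PBS in whole liver and in hepatocyte nuclei, and for cachexia and NC26 tumours over their PBS animals in whole liver nuclei. Bars start at 0 and carry no error, since genes are not replicates, and the cachexia and pre-cachexia comparisons share PBS animals. Interferon-induced genes stand at 0.87 before cachexia and at -0.36 in cachexia.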

How the data were processed

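RNA of whole liver nuclei and of bead-bound hepatocyte nuclei was sequenced as 50 bp paired-end reads, with a stranded kit used without poly-A selection, per the labels' protocols. The authors deposited raw counts per gene for 72 libraries. The submitters' processing notes name STAR 2.4.2a, DESeq2 1.24.0 and build mm10, and whether counting used strand is not given in the sources used here. Libraries held 15.6 to 25.5 M counts, which limits the precision for genes of few counts. Replicates are separate animals by their labelled animal numbers.

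Counts were fitted with edgeR 4.0.16 (quasi-likelihood F test, TMM scaling, low-count filter by group; R 4.3.3, limma 3.58.1) over the 36 whole liver libraries in 9 groups, with Benjamini-Hochberg adjustment over all tested genes. CPM values are TMM-scaled. The difference between fractions was fitted over 72 libraries with the animal as a block. Alternatives were DESeq2 1.42.0, other scalings, filters and sets of libraries, and each library left out in turn. The comparison of pre-cachexia with cachexia and the fit without pre-cachexia animal 3 and PBS animal 1 were chosen after the data were seen. The scripts were tested on simulated data.

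Gene lists and members were chosen with earlier results of these data known. Genes were named by rule: the 12 highest and 12 lowest called fold changes with groups apart and a mean of at least 2 CPM, the 12 smallest p in each direction among non-hepatocyte genes, of each cell type list the 2 highest by mean CPM and the 3 smallest p among called members, of each pathway list the 2 smallest p among called members, and the smallest p of the fraction difference. The text describes part of these, and some items are not reported here. Outside this rule, and chosen after their values were seen, are Clec4f, Vsig4, S100a8, Vav1, Igtp, Gbp7, Siglec1, Adgre1, Timd4, Spi1, Ptprc, Cybb, Ciita, Cd74, H2-Aa, H2-Ab1, Tap1, Psmb8, Nlrp3, Usp18, Oas3, Mx1, Bcl11b, Il2rb, Kdr, Pecam1, Col1a1, Lrat, Ccl25 and Bicc1. Intervals cover counting error only.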

Additional observations from a re-analysis of the deposited data

Results flagged for a closer look

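In 13 of 201 groups checked (101 named genes, 2 groups each, without 1 group in which all animals were at the same value), or 6.47%, the highest or lowest of the 4 animals of a group lay far from the others by Dixon's criterion at 95%, which chance meets in about 1 in 20 groups. PBS animal 1 was high for Mrc1 (251 CPM), Lyve1 (10.2 CPM) and Ptprc (85.7 CPM), and low for Fcgr4 (1.04 CPM), Il2rb (0.415 CPM) and S100a8 (0 CPM). PBS animal 2 was high for Tox (436 CPM), PBS animal 3 was apart for Il18rap (1.32 CPM) and PBS animal 4 was high for Prtn3 (0.0587 CPM, 1 count). Pre-cachexia animal 1 was high for Cps1 (4928 CPM), Rad51b, a gene of DNA repair (2119 CPM), and Mt1, a metallothionein (136 CPM), and low for Mup21 (8.78 CPM).

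In 6 named genes the effect in whole liver nuclei differed from that in hepatocyte nuclei of the same animals by the interaction test of edgeR with the animal as a block. The log2 difference was positive for Orm3 (1.99), Rab3b (1.86) and Igfbp1, which binds insulin-like growth factors (1.54). It was negative for Xaf1 (-0.82), Alpk1 (-0.77) and Fabp1, the fatty acid carrier of hepatocytes (-0.74). None of these was called with only the 16 libraries of these animals.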

How the results depend on the processing

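The count of 1198 genes higher and 555 lower became 836 higher and 378 lower with only the 8 libraries of both groups. With the replicate number as a block in these 8 libraries it was 730 higher and 308 lower. DESeq2 on the 36 libraries called 894 lower. Leaving out each library in turn gave 694 to 1434 higher and 166 to 1024 lower. The labels do not say whether the replicate numbers pair the animals. Deviations of same-numbered animals correlated at 0.23, 0.08, 0.06 and 0.06, and those of animals with different numbers at -0.41 to 0.35. Of 4 pre-cachexia animals 2 correlated best with their own number, which is too few animals to settle the question. Among non-hepatocyte genes the 16 lower became 10 with the replicate block, 28 with DESeq2 and 5 without pre-cachexia animal 3 and PBS animal 1, and leaving out each library gave 383 to 641 higher and 7 to 18 lower. The fraction difference (7 and 22 genes) became 11 and 7 with RLE scaling, 10 and 13 with no low-count filter, and 0 and 0 both with only 16 libraries and with no animal block. The causes were not tested. No gene called both in the reported fit and in an alternative had opposite directions, but clock genes went to 0 higher and 2 lower without pre-cachexia animal 3 and PBS animal 1, against 1 higher and 0 lower. With the replicate block lipogenesis genes were 7 lower and 1 higher, drug metabolism genes 4 lower and 2 higher, and stellate cell markers 1 lower and 1 higher. Of the values of single genes 1674 kept their side of the threshold, against 28 that lost it and 7 that gained it. Genes at a few counts, such as most neutrophil markers, are limited by depth.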
